A study of Mus musculus with 15 samples.

Results

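The genes followed here are 10 transcription factors and early response genes: the Fos family (Fos, Fosb, Fosl1 and Fosl2), the Jun family (Jun, Junb and Jund), the related factor Atf3, the zinc finger factor Egr1 and the early response gene Ier3. They were chosen by name as AP-1 and early response factors and then looked up among the array features that carry exactly 1 gene symbol. Of the 10 genes, 9 had a value, out of 15039 genes with a value on the arrays, and 7 were bright enough to be tested, out of 9926 tested genes. Fosb had no feature under its name and was not analysed here. Fos and Egr1 stayed below the brightness cutoff used for the test, a log2 level of 6.59, in the mean of every group.

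RNA was measured on 15 Affymetrix mouse exon arrays from a pair of mouse cell lines, each before and after 2, 4 or 8 h with 100 nM dexamethasone, a synthetic glucocorticoid that activates the glucocorticoid receptor. The 3134 line was made by transforming C127 cells, which came from a mammary tumour of an RIII mouse, and the AtT-20 line stems from pituitary corticotrophs, the cells that make the adrenal-stimulating hormone, of the LAF1 strain. All cells had been kept for 48 h in serum stripped with charcoal and dextran, and the 0 h cells, which the labels call both untreated and vehicle treated, served as the control. The 8 groups held 2 arrays each, but for the 8 h group of AtT-20 with its single array.

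No cells were kept for 2, 4 or 8 h without hormone, so the hormone and the time in culture cannot be told apart. The labels do not say whether the replicate arrays came from separate cultures, so the p-values speak of the spread among these arrays alone, and that spread may be technical. The arrays of each line fall into 2 runs of serial numbers, which are the runs named below, and every group had 1 array in each run, except AtT-20 at 8 h, whose array was of run 1. Arrays of the same run and line deviated together, so each test was also fitted with the run as a block, and that value is given where it changes a call. Each gene value is the median over its features, called probesets, after quantile normalization of the 15 arrays, on a log2 scale, and levels of different genes are not compared. With 2 arrays on each side, the standard error of a log2 fold change had a median of 0.22. In RNA of whole cultures, fewer cells of a kind and less RNA per cell cannot be told apart.

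The AtT-20 line carried the markers of its label, and the 3134 line only in part. All 5 corticotroph markers, among them the hormone precursor gene Pomc (log2 level 13.23 in AtT-20 and 5.20 in 3134 at 0 h), were above the brightness cutoff in AtT-20 and none of them in 3134. Of 5 markers of other pituitary cells, 0 were above it in either line. Of 6 epithelial markers, 2 were above it in 3134 and 2 in AtT-20. In AtT-20 these were the keratin genes Krt8 (11.68) and Krt18 (9.97), with levels of 6.77 and 4.95 in 3134. In 3134 they were Krt8 and Krt14 (7.03), both near the cutoff. The epithelial adhesion genes Epcam and Cdh1 were below the cutoff in both lines. All 5 mesenchymal markers were above it in 3134, and 1 was in AtT-20. Genes known to answer the hormone rose in both lines: of 5 genes known to be induced by glucocorticoids, 5 rose in 3134 and 3 in AtT-20 (Sgk1 by log2 1.87, Per1 by 1.25 and Fkbp5 by 0.91, means over times).

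AP-1 is a dimer of leucine zipper proteins: a Fos family protein pairs with a Jun family protein, or Jun family proteins pair with each other, and the dimer binds a short palindromic DNA site. Growth factors and stress raise several of these genes within minutes through MAP kinases, serum response factor and CREB family factors, and the transcripts are short-lived. The activated glucocorticoid receptor is known both to repress genes driven by AP-1 and to bind at sites where AP-1 keeps chromatin open.

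In 3134 cells, 1 of the 7 tested members passed the test at each time, and it was Ier3, a short-lived early response gene with a role in cell survival, which fell (limma, adjusted p under the threshold of 0.05). Among all tested genes, 1.22% were called at 2 h, 1.91% at 4 h and 2.19% at 8 h, and 0.282%, 0.564% and 0.544% were called lower. With the run as a block, Fosl2 and Jun were also lower at 2 h, Fosl2 at 4 h, and Fosl2 and Jun at 8 h, when Jund was higher. The members called with the block were therefore 3, 2 and 4 of 7, beside 2.98%, 5.17% and 7.88% of all tested genes, and 4 of 7 in the average over the 3 times, beside 6.54%. The median log2 fold change of the 7 members was -0.61 at 2 h, -0.44 at 4 h and -0.48 at 8 h, against -0.02, -0.02 and -0.01 over all tested genes. These comparisons share their 0 h arrays, so the 3 times are not separate evidence.

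**Figure D1:**
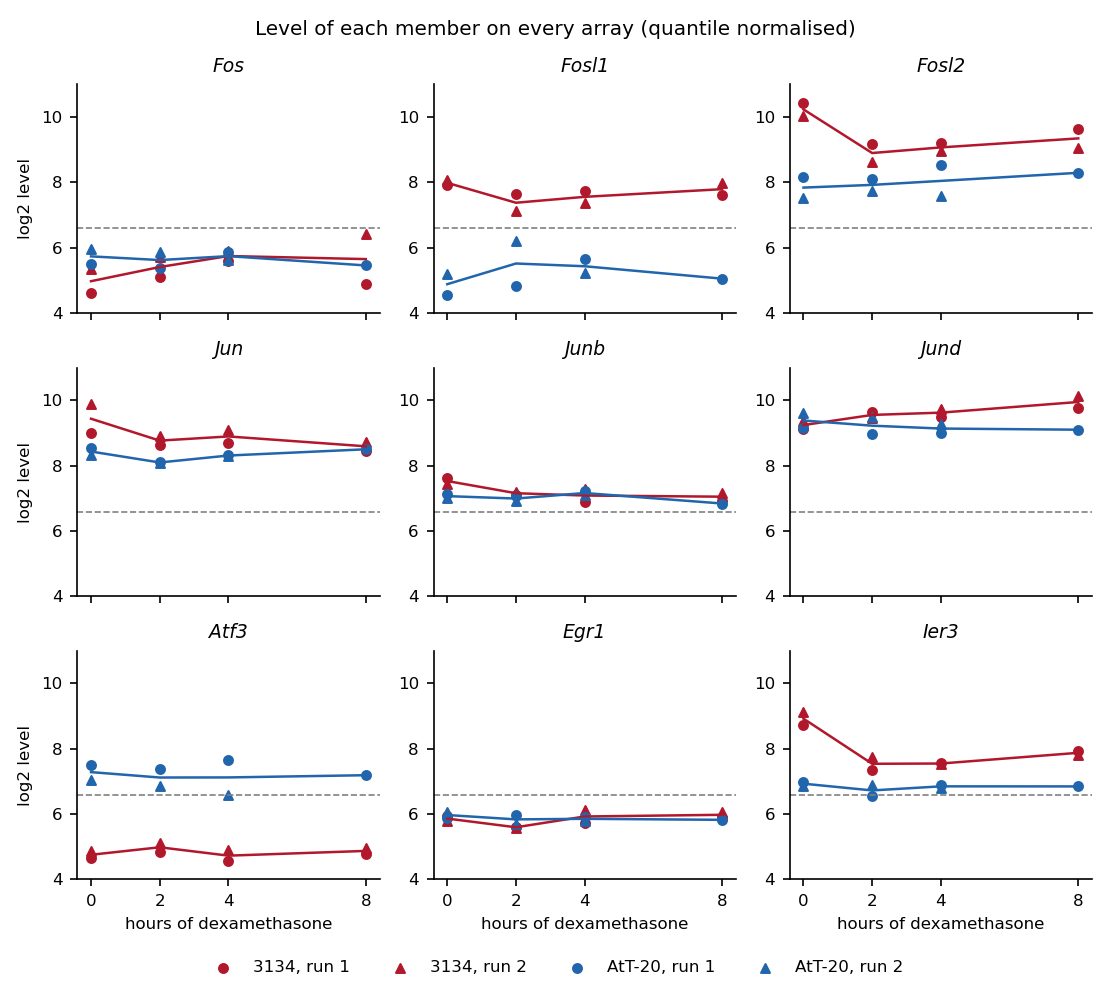
Log2 level (y axis, quantile normalised, median over probesets) of each of the 9 members with a value against hours of dexamethasone (x axis). Points are single arrays, circles of run 1 and triangles of run 2, lines join group means, and the dashed line is the brightness cutoff of log2 6.59. The treated 3134 arrays of Ier3 and Fosl2 all lie below both 0 h arrays, those of Jund lie above them, and Fos and Egr1 stay below the dashed line.

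Ier3 (NCBI gene 15937) had log2 levels of 8.73 in run 1 and 9.11 in run 2 at 0 h in 3134 cells. At 2 h its levels were 7.34 and 7.74, at 4 h 7.56 and 7.54, and at 8 h 7.94 and 7.82. All 6 treated arrays lay below both control arrays, and the smallest difference from the control of the same run was -0.80, at 8 h in run 1. Ier3 fell 2.61-fold at 2 h (log2 fold change -1.38 ± 0.19, SE, limma adjusted p = 0.00396). The log2 fold change was -1.37 ± 0.19 at 4 h (limma adjusted p = 0.00254), and the 8 h value of -1.05 ± 0.19 passed as well (adjusted p = 0.0152). Averaged over the 3 times, its fold change of -1.27 ± 0.16 (adjusted p = 0.000741) was the 12th lowest of the 9926 tested genes. In that average 2.43% of tested genes were called, 0.635% of them lower. All 3 probesets of Ier3 were lower at every time, by -1.27 to -1.85 in the average. Of these, 2 passed a test over all 158946 probesets bright enough, of which 0.0484% were called lower (3 of 3 under the block, beside 0.289%). The median over the 3 fell on 1 of those 2, whose changes equal those of the gene. Its pass therefore repeats the gene result, and the fold changes of Ier3 given here are those of 1 probeset.

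The call of Ier3 at 2 h was lost without replicate 1 at 2 h (-1.18, adjusted p = 0.0649) or without replicate 2 at 0 h (-1.19, adjusted p = 0.0678). Its call at 8 h was lost without replicate 1 (-1.11, adjusted p = 0.0728) or 2 at 8 h (-0.99, adjusted p = 0.106), or replicate 2 at 0 h (-0.86, adjusted p = 0.196), while the calls at 4 h and in the average held without each array in turn. The 8 h call was also lost where a gene value was the mean over probesets (-1.26, adjusted p = 0.0535) or a median polish (-1.23, adjusted p = 0.0801).

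Fosl2 (gene 14284), which encodes the Fos family protein Fra-2, had log2 levels of 10.44 in run 1 and 10.04 in run 2 at 0 h. At 2 h the levels were 9.18 and 8.63, those of 4 h were 9.20 and 8.95, and those of 8 h were 9.64 and 9.06. The treated arrays all lay below both controls, and each run was shifted by a like amount, with differences from 0 h of -1.26 and -1.41 at 2 h and of -0.80 and -0.98 at 8 h. The log2 fold change was -1.34 ± 0.34 at 2 h, a 2.52-fold lower level (limma adjusted p = 0.123; 0.000261 with the run as a block), -1.16 at 4 h (adjusted p = 0.165; 0.000534 with the block) and -0.89 at 8 h (adjusted p = 0.306; 0.00389 with the block). The average over the 3 times was -1.13 ± 0.28 (adjusted p = 0.0637; 0.000102 with the block), the 22nd lowest of all tested genes. Without the block the average passed where a gene value was the mean over probesets (-1.17, adjusted p = 5.23e-05) or a median polish (-1.16, adjusted p = 0.00304). All 7 of its probesets were lower in the average, by -0.77 to -1.41, and 2 passed the test over all probesets (6 with the block).

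Jun (gene 16476), the founding member of the Jun family, had log2 levels of 8.99 in run 1 and 9.88 in run 2 at 0 h. The 2 h arrays gave 8.62 and 8.91, the 4 h arrays 8.70 and 9.09, and the 8 h arrays 8.45 and 8.73. The groups overlapped at 4 h, where the run 2 array stood above the run 1 control, and did not overlap at 2 and 8 h. Within run 2 the differences from 0 h were -0.97, -0.79 and -1.15, and within run 1 they were -0.37, -0.29 and -0.54. The log2 fold change was -0.67 ± 0.26 at 2 h (limma adjusted p = 0.702; 0.0433 with the run as a block), -0.54 at 4 h (adjusted p = 0.639; 0.081 with the block) and -0.84 at 8 h (adjusted p = 0.161; 0.00667 with the block). Its average change of -0.69 ± 0.21 (adjusted p = 0.177; 0.0066 with the block) became -1.13 without replicate 1 at 0 h, where it passed (adjusted p = 0.0325), and -0.24 without replicate 2 at 0 h. Of its 23 probesets, 21 were lower in the average, and of the 22 that were bright enough 0 passed the test over all probesets (4 with the block).

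Jund (gene 16478), the Jun family member known for steady expression in resting cells, had higher values in treated cells. Its log2 levels at 0 h were 9.11 in run 1 and 9.37 in run 2. The 2 h arrays gave 9.65 and 9.46, the 4 h arrays 9.50 and 9.74, and the 8 h arrays 9.76 and 10.13. Every treated array lay above both controls. The log2 fold change was 0.31 at 2 h, 0.38 at 4 h and 0.71 ± 0.23 at 8 h, a 1.63-fold higher level (limma adjusted p = 0.2 at 8 h; 0.0136 with the run as a block), and 0.47 ± 0.19 in the average (adjusted p = 0.426; 0.0433 with the block). All 5 probesets were higher in the average, by 0.28 to 0.57, and 0 passed on their own with or without the block. On the values as deposited, where the median of all genes itself shifted by -0.37 at 8 h, the change of Jund at 8 h was 0.28 (adjusted p = 0.453 with the block), so its call depends on the scale between arrays.

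**Figure D2:**
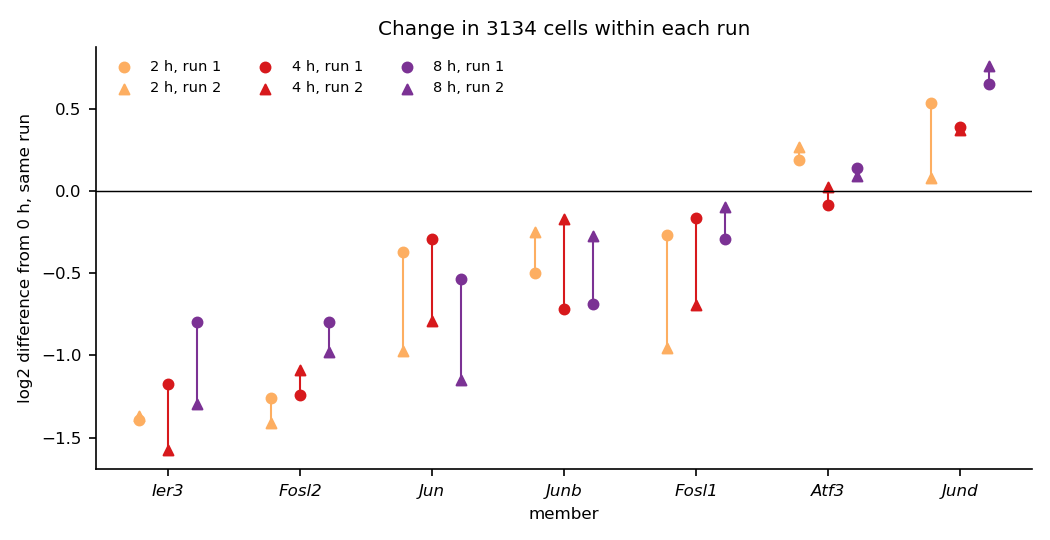
Log2 difference of each treated 3134 array from the 0 h array of the same run (y axis) for the 7 tested members (x axis). Circles are run 1, triangles run 2, and colours mark 2, 4 and 8 h. All 6 differences are below 0 for Ier3, Fosl2, Jun, Junb and Fosl1, and above 0 for Jund.

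Sequence upstream of these 4 genes is shown because they are the members called in 3134 cells with the block, 3 of them lower and 1 higher. Each line holds the 250 bases before the RefSeq gene start (GRCm38.p6), read 5′ to 3′ on the strand of the gene, with capitals marking a match to 1 of the motifs searched.
Ier3, chr17:35821463-35821712, plus strand: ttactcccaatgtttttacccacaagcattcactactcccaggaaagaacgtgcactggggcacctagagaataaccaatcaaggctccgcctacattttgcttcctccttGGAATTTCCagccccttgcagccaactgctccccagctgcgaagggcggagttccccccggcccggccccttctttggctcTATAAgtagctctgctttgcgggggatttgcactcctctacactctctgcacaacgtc
Fosl2, chr5:32136222-32136471, plus strand: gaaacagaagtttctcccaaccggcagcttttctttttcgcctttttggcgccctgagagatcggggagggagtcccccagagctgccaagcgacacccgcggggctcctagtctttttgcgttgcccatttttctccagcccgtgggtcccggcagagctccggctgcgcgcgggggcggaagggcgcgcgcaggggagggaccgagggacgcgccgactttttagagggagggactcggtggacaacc
Jun, chr4:95052223-95052472, minus strand: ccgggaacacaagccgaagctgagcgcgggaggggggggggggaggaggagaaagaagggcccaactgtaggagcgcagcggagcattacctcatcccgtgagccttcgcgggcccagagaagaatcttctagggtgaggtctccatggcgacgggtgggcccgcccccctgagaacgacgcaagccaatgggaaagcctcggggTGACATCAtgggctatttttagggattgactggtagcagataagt
Jund, chr8:70697489-70697738, plus strand: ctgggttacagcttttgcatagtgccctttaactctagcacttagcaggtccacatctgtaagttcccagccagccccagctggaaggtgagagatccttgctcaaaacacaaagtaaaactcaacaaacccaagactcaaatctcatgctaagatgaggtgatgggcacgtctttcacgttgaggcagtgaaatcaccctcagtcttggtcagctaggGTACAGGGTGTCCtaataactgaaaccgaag
The motifs were the AP-1 site TGANTCA, the longer AP-1-like site TGACNTCA, the CREB core TGACGT (which can lie within the former), the CArG box of serum response factor, the NF-kB site GGNNTTTCC and the glucocorticoid receptor site, GNACA and TGTNC with any 3 bases between them, all on both strands, and TATAA on the gene's own strand. Counted back from the start, Ier3 held GGAATTTCC at -139 to -131, a motif in 4.93% of all 32851 windows of this length, and TATAA at -58 to -54, as in 16% of windows. Jun held TGACATCA at -45 to -38, a motif found in 7.49% of windows. Jund held GTACAGGGTGTCC at -31 to -19, a motif in 0.387% of windows. Fosl2 held none of the 7 motifs in this window. Among the other members with a window, Fos and Atf3 each held TGACGT on 1 strand (6.47% of windows), and Fos held TATAA. These matches are letters in a window and show no binding.

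Junb (gene 16477), a Jun family member, had log2 levels of 7.61 and 7.45 at 0 h and between 6.89 and 7.28 in the 6 treated 3134 arrays. The treated arrays all lay below both controls, by less than for Ier3 or Fosl2. Its average log2 fold change was -0.43 ± 0.14 (limma adjusted p = 0.221; 0.0506 with the run as a block), with -0.37, -0.44 and -0.48 at 2, 4 and 8 h. Of its 6 probesets, 5 were lower in the average, and 0 of the 5 bright ones passed. On the normalised values Junb did not pass at any time, with or without the block. On the values as deposited with the block it passed at 8 h (-0.80, adjusted p = 0.0348) and in the average (-0.67, adjusted p = 0.0443), where the median of all genes shifted by -0.37 and -0.26.

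Fosl1 (gene 14283), which encodes the Fos family protein Fra-1, had log2 levels of 7.91 in run 1 and 8.07 in run 2 at 0 h in 3134. The 2 h arrays gave 7.64 and 7.12, the 4 h arrays 7.74 and 7.38, and the 8 h arrays 7.62 and 7.97. The groups overlapped at 8 h, and the average change of -0.41 ± 0.32 (95% interval -1.11 to 0.29, limma adjusted p = 0.868; 0.477 with the run as a block) did not pass. It passed on the values as deposited with the block (-0.68, adjusted p = 0.0423), where the median of all genes shifted by -0.26. The gene value covers probesets that read unlike each other. Of its 7 probesets, 3 had like levels in both lines at 0 h (3134 minus AtT-20: 0.05, -0.07 and 0.16) and changed by 0.16, 0.15 and -0.18 in treated 3134 cells. The other 4 were higher in 3134 than in AtT-20 by 3.98, 4.76, 5.63 and 1.78, each past the test over all probesets, which called 17.2% of them higher. These 4 had changes from -1.51 to -0.49 in treated 3134 cells, and 1 of them, with levels of 10.09 in 3134 and 4.47 in AtT-20 at 0 h, passed as lower (limma adjusted p = 0.0102). A test of unequal change among the probesets of a gene (limma diffSplice, Simes method) did not pass for Fosl1 (adjusted p = 0.999; 0.34 with the block), while 0.282% of genes passed it (1.9% with the block). This split of the probesets was chosen after their values were seen and is given as a description.

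**Figure D3:**
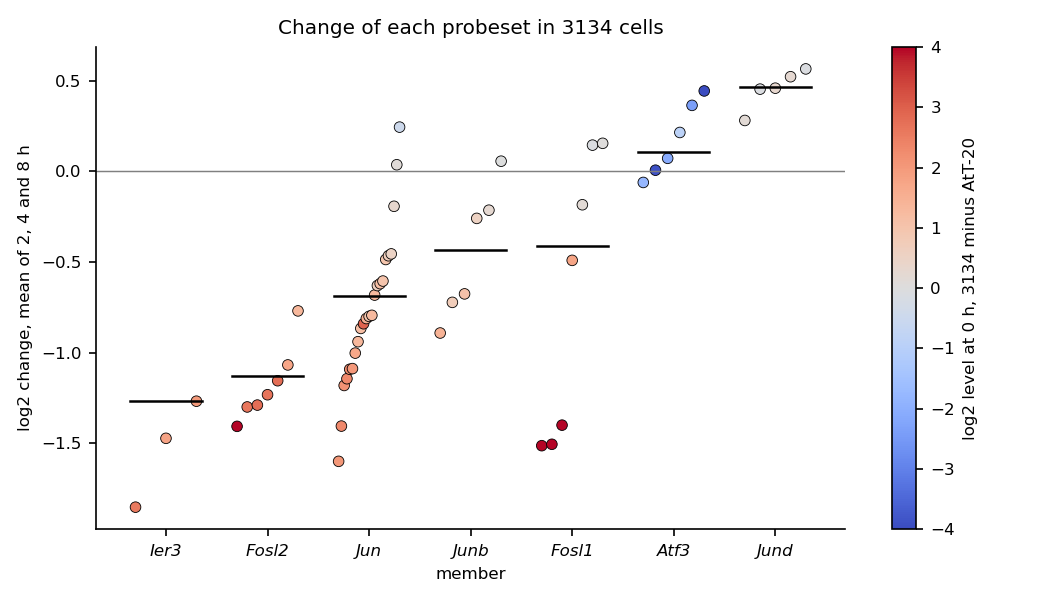
Average log2 change over 2, 4 and 8 h in 3134 cells (y axis) of every probeset of the 7 tested members (x axis). Colour gives the log2 level of the probeset at 0 h in 3134 minus AtT-20, with differences past 4 shown at the end of the scale, and black bars give the change of the gene. All probesets of Ier3 and Fosl2 lie below 0 and all of Jund above it, and those of Fosl1 split into 3 near 0 with like levels in both lines and 4 lower ones.

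Atf3 (gene 11910), a stress-induced factor that pairs with Jun proteins, lay between 4.57 and 5.13 in all 8 arrays of 3134, below the brightness cutoff, so its change there (average 0.11, 95% interval -0.46 to 0.67) was read at low signal. Fos (gene 14281), the founding member of the Fos family, ranged from 4.61 to 6.42 in 3134 and from 5.37 to 5.97 in AtT-20. Egr1 (gene 13653), a growth-induced zinc finger factor, ranged from 5.58 to 6.13 in 3134 and from 5.71 to 6.06 in AtT-20. Neither gene was tested as a whole. Of their probesets, 7 of 18 for Egr1 and 2 of 7 for Fos were bright enough for the test over all probesets, and 0 passed in the average response of 3134, with or without the block, with changes of 0.14 to 0.56 for Egr1 and of 0.06 to 0.18 for Fos.

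Between 2 and 8 h in 3134, 0 of the 7 members passed with or without the run as a block, beside 0.0907% of all tested genes (1.98% with the block). The lowest unadjusted p without the block was 0.108 (limma). With the block, the 95% intervals of Fosl2 (0.112 to 0.783) and Jund (0.067 to 0.725) lay above 0. Neither gene passed after adjustment (limma with the block, adjusted p = 0.159 and 0.205). The levels at 8 h are therefore not shown to differ from those at 2 h.

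Over the 8 arrays of 3134, after the mean of each run was removed, the level of Ier3 followed that of Fosl2 (Pearson r = 0.96) and of Jun (r = 0.80), and Fosl2 followed Junb (r = 0.78) and Jun (r = 0.78), while Jund ran against Jun (r = -0.75). These values describe 8 arrays that share their runs and controls. The shift between 0 h and treated arrays was left in, so the correlations carry the changes given above and are not separate evidence. The 3 genes outside the set with the pattern most like Ier3 by the same measure were Epha7 (r = 0.992), Csgalnact2 (r = 0.99) and Epha2 (r = 0.989), among which Epha7 and Epha2 encode ephrin receptors. Their average log2 fold changes were -0.33, -0.35 and -0.53 (limma adjusted p = 0.808, 0.632 and 0.235), so none of them passed the test.

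In AtT-20 cells, 0 of the 7 tested members passed at 2, 4 or 8 h or in the mean of 2 and 4 h, with or without the run as a block (limma). Without the block, 0 had an unadjusted p under 0.05 in any of these comparisons. With the block the largest fall at 8 h, read from a single array, was that of Atf3 (-0.44, and -0.32 from the 0 h array of its run). Of all tested genes, 0.0907% were called at 2 h, 0.171% at 4 h, 0.121% at 8 h and 0.181% in the mean of 2 and 4 h, and 339 had an unadjusted p under 0.05 in that mean. With the block these shares were 0.322%, 0.856%, 0.443% and 0.756%. Between 2 and 4 h, 0 members and 0 of 9926 genes passed, and 140 genes had an unadjusted p under 0.05 (with the block, 0.0201% of genes passed).

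Ier3 in AtT-20 had log2 levels of 6.99 in run 1 and 6.87 in run 2 at 0 h. The 2 h arrays gave 6.56 and 6.90, the 4 h arrays 6.90 and 6.80, and the 8 h array 6.85. The arrays of 2 and 4 h overlapped the controls, and 1 array, at 2 h, fell below the brightness cutoff, so a fall of the size seen in 3134 would have ended below that level. The mean change of Ier3 at 2 and 4 h was -0.14 (95% interval -0.51 to 0.22). Its 3 probesets gave -0.14, which is the gene value, -0.42 and -0.20. Fosl2 had levels of 8.16 and 7.53 at 0 h in AtT-20. The 2 h arrays gave 8.12 and 7.74, the 4 h arrays 8.52 and 7.57, and the 8 h array 8.30. Treated arrays and controls overlapped at 2 and 4 h, and the single 8 h array lay above both controls. The mean change of Fosl2 at 2 and 4 h was 0.14 (95% interval -0.50 to 0.79). It turned to -0.09 without replicate 1 at 4 h and to -0.18 without replicate 2 at 0 h. Jun had levels of 8.55 and 8.31 at 0 h, and its 2 h arrays, at 8.11 and 8.08, lay below both controls, while the 4 h arrays, at 8.33 and 8.29, and the 8 h array, at 8.50, overlapped them (mean change -0.23, 95% interval -0.72 to 0.27). Jund gave 9.16 and 9.61 at 0 h, 8.97 and 9.48 on the 2 h arrays, 8.99 and 9.28 on those of 4 h, and 9.10 on that of 8 h, with overlap at 2 and 4 h. All 5 probesets of Jund were lower in the mean of 2 and 4 h in AtT-20, and its mean change was -0.20 (95% interval -0.64 to 0.24). The mean changes of Fosl1 (0.59, from levels between 4.57 and 6.22, below the brightness cutoff), Junb (0.01) and Atf3 (-0.16) also had intervals that held 0.

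**Figure D4:**
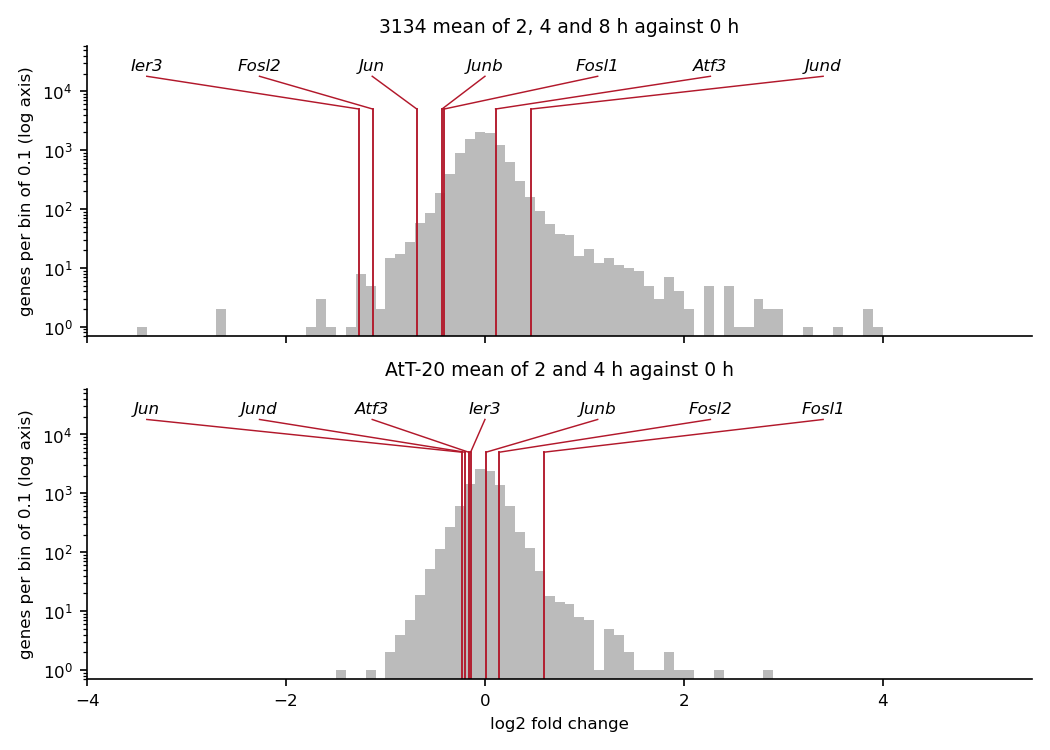
Number of tested genes per bin of log2 fold change (x axis, bins of 0.1; y axis on a log scale) in the mean response of 3134 cells, over 2, 4 and 8 h, and of AtT-20 cells, over 2 and 4 h. Red lines mark the 7 tested members. Ier3 at -1.27 and Fosl2 at -1.13 lie in the left tail in 3134, and all members lie within 0.6 of 0 in AtT-20.

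How far the lines responded differently was tested in 1 fit, on the mean of 2 and 4 h, the times with arrays of both runs in both lines. Ier3 fell more in 3134 than in AtT-20, by log2 -1.23 ± 0.24 (95% interval -1.75 to -0.72, limma adjusted p = 0.0446; 0.00532 with the run as a block). It was the 1 member of 7 called, beside 0.645% of all tested genes, 0.151% of them lower. This call was lost without any 1 of 10 of the 12 arrays used, with values from -1.42 to -1.04 (adjusted p from 0.0701 to 0.286), and held without replicate 2 of 3134 at 2 h or replicate 1 of AtT-20 at 2 h. It was also lost with the mean over probesets (-1.41, adjusted p = 0.172) and with median polish (-1.36, adjusted p = 0.262), where Fosl2 was called lower instead (adjusted p = 0.000777 and 0.0147). Fosl2 differed by -1.39 ± 0.42 (adjusted p = 0.309; 0.00133 under the block), so that 2 of 7 members were called under the block, beside 2.73% of genes. Fosl1 differed by -1.11 (95% interval -2.15 to -0.07, adjusted p = 0.818; 0.245 with the block), Junb by -0.42, Jun by -0.38, Jund by 0.55 and Atf3 by 0.27, and none of these passed. Fosl1 passed on the values as deposited with the block (-1.33, adjusted p = 0.00613).

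Before hormone, 6 of the 7 tested members differed between the lines, 5 higher and 1 lower in 3134 than in AtT-20, in a comparison in which 54.5% of all tested genes were called, 24.3% higher and 30.2% lower. The median over the 7 members was log2 1.00, against -0.10 over all tested genes. Fosl1 was 8.59-fold higher in 3134 (log2 3.10 ± 0.39, limma adjusted p = 2.61e-05), with levels of 4.57 and 5.21 in AtT-20 that lay below the brightness cutoff, where a fold is uncertain. The same difference was 1.78 with median polish over the probesets (adjusted p = 0.000459). No probeset of Fosl1 differed by 3.10, as 3 differed by -0.07 to 0.16 and 4 by 1.78 to 5.63. In 3134 the median lay near a probeset with like levels in both lines (7.99, and 7.83 in AtT-20). In AtT-20 it lay near another (4.87), so the fold of the gene depends on the summary and is not that of a probeset. Fosl2 was higher by 2.39 ± 0.34 (adjusted p = 7.8e-05), Ier3 by 1.99 ± 0.19 (adjusted p = 2.63e-06), Jun by 1.00 ± 0.26 (adjusted p = 0.00616) and Junb by 0.46 ± 0.17 (adjusted p = 0.0407). Atf3 was lower in 3134 by -2.53 ± 0.32 (adjusted p = 2.58e-05), with AtT-20 levels of 7.52 and 7.06. Jund did not pass (-0.14, 95% interval -0.65 to 0.37). Without replicate 2 of 3134 at 0 h the difference of Jun was 0.56 (adjusted p = 0.0841), and Junb lost its call without any 1 of the 4 arrays (0.38 to 0.54, adjusted p from 0.0731 to 0.196). Junb also lost it on centred arrays (adjusted p = 0.0663), on the values as deposited (0.63), with no filter on dim genes (0.0718) and with trend and robust settings (0.0606).

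After hormone, Ier3, Fosl2, Fosl1 and Atf3 still had no overlap between the lines, given as a description. The share of all tested genes without overlap was not counted, and 54.5% of them were called between the lines at 0 h. The lowest treated 3134 level of Ier3 (7.34) was above the highest AtT-20 level (6.99), and the lowest of Fosl2 (8.63) was above the highest of AtT-20 (8.52). The lowest treated 3134 level of Fosl1 (7.12) was above the highest of AtT-20 (6.22), in a gene value that joins probesets with like and unlike levels in the lines. Atf3 lay the other way, with its highest 3134 level (5.13) below its lowest of AtT-20 (6.58). All AtT-20 levels of Fosl1 and all 3134 levels of Atf3 lay below the brightness cutoff, so each of these genes was tested through the other line. The levels of Jun, Junb and Jund overlapped between the lines.

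Other genes of the AP-1 pathway were read from lists chosen by role. Of 10 tested partners that can pair with Fos or Jun proteins or bind related sites, 0 passed in the average response of 3134 (limma, 1 with an unadjusted p under 0.05) or in AtT-20 (0 with an unadjusted p under 0.05), and the median change in 3134 was -0.11. Of all 9926 tested genes, 900 had an unadjusted p under 0.05 in that average of 3134 and 339 in the mean of AtT-20 (limma). The stress factor Atf4 passed in 3134 only with the run as a block (-0.53, adjusted p = 0.563; 0.0487 with the block), and Creb5 (-0.39), Jdp2 (-0.30) and Atf2 (-0.22) did not pass. That made 1 of 10 partners lower under the block, beside 2.51% of all tested genes. Of 22 tested kinases and serum response factors upstream, 0 passed in either line (4 in 3134 and 0 in AtT-20 with an unadjusted p under 0.05). With the block, the GTPase gene Hras was higher in 3134 (0.69, adjusted p = 0.164; 0.00994 with the block), and the p38 activator Map2k3 (-0.60, adjusted p = 0.112; 0.0145 with the block) and the ternary complex factor Elk3 (-0.50, adjusted p = 0.201; 0.049 with the block) were lower. These were 1 of 22 higher and 2 of 22 lower, beside 4.03% and 2.51% of all tested genes under the block.

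Of 26 other immediate early genes tested, 3 rose and 2 fell in the average response of 3134 (5 and 7 with the run as a block), with a median of -0.18, beside 1.79% of all tested genes called higher and 0.635% called lower, shares that were 4.03% and 2.51% under the block. The kinase gene Sik1 rose by log2 1.86, the matrix protein gene Ccn2 by 2.07 and the pseudokinase gene Trib1 by 0.71. Phlda1 fell by 1.65 on the log2 scale and the zinc finger factor Klf4 by 0.96. The block alone added Klf2 (0.81) and the mRNA decay factor gene Zfp36 (1.21) as higher, and its paralog Zfp36l1 (-1.30), Egr2 (-0.78), Ier2 (-0.69), Klf10 (-0.55) and Klf6 (-0.46) as lower, names chosen after their values were seen. In AtT-20, 0 of the 26 passed (limma, 3 with an unadjusted p under 0.05), and the smallest p-values were those of the nuclear receptors Nr4a3 (-0.46) and Nr4a1 (-0.46), Trib1 (-0.33) and Csrnp1 (0.44).

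Of 20 genes known as AP-1 targets, 17 had a value and 10 were bright enough to be tested. Of these 10, 4 fell and 0 rose in the average response of 3134, beside 0.635% of all tested genes called lower and 1.79% higher. The block gave 6 lower and 0 higher, beside 2.51% and 4.03% of all tested genes. All 10 fold changes were below 0, with a median of -0.63. The chemokine gene Ccl2 fell by 3.48 on the log2 scale (limma adjusted p = 0.0013), the urokinase gene Plau by 1.55 (adjusted p = 0.00019), its receptor gene Plaur by 0.86 (adjusted p = 0.0252) and the angiogenic factor gene Vegfa by 0.65 (adjusted p = 0.0188). The growth factor gene Hbegf (-0.71, adjusted p = 0.331; 0.0119 under the block) and the adhesion gene Cd44 (-0.60, adjusted p = 0.425; 0.0123 under the block) were called lower under the block alone. Several of these genes are also targets of NF-kB, so the list does not read AP-1 alone. In AtT-20, 0 of the 10 passed (limma, 1 with an unadjusted p under 0.05, Timp1 at 0.68, adjusted p = 0.433; 0.0205 with the block), and the median was -0.01. In the test of the lines against each other at 2 and 4 h, Plau (-1.85, adjusted p = 0.00348) and Ccl2 (-3.65, adjusted p = 0.0468) fell more in 3134 than in AtT-20. Under the block 5 of the 10 passed as lower, beside 2.73% of all tested genes called in either direction. Besides Plau and Ccl2 these were Plaur (-1.05, adjusted p = 0.149; 0.0132 under the block), Cd44 (-0.98, adjusted p = 0.623; 0.0133 under the block) and Timp1 (-0.82, adjusted p = 0.309; 0.0209 under the block). At 0 h, 7 of the 10 target genes were called higher in 3134 than in AtT-20, and 2 were called lower (limma). Of all tested genes, 24.3% were called higher and 30.2% lower. A gene bright in 1 line alone entered the test through that line, so the count of 7 is given as a description. A gene with low signal in AtT-20 has little room to fall there. The part of this in the AtT-20 result and in the difference of the lines was not tested.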

How the data were processed

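RNA of 3134 and AtT-20 cells was hybridised to 15 one-colour exon arrays. The deposited files hold 1 log2 value per probeset and array, and the submitters' processing notes name Affymetrix Expression Console with RMA for making them. Software versions and a genome build were not given in the sources used here. Array medians of the deposited values differed by run of serial numbers (3134: 7.83 to 8.14 and 6.76 to 7.20; AtT-20: 7.51 to 7.86 and 6.93 to 7.22), so the 15 arrays were quantile normalised. Unchanged values and arrays centred on their medians were tried instead. No 2 arrays correlated above 0.985, and each was counted as a sample.

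Of 228090 probesets, 207232 had 1 gene symbol in the platform annotation, 3882 had several and 16976 had none, and only the first kind named genes. Of 16207 symbols, 14055 were current in RefSeq (GRCm38.p6, used for names and for the upstream windows), 2092 were updated through synonyms and 60 were kept. A gene value was the median over at least 3 probesets. A gene was tested where its highest group mean was at or above a cutoff of log2 6.59, the 40th percentile. All 15 arrays entered 1 limma model (version 3.58.1, lmFit and eBayes, R 4.3.3, data.table version 1.17.8) of 8 group means with 7 residual degrees of freedom (5 with the run of each line as a block), 2-sided, with Benjamini-Hochberg adjustment over the 9926 tested genes and a threshold of 0.05. In that fit the lone AtT-20 array at 8 h is assumed to vary like the others.

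To check whether runs pair the arrays, deviations from group means were correlated. They gave 0.492 to 0.590 in 9 pairs from 1 run of 1 line, and 0.276 to 0.391 in 12 pairs that shared the run number across lines. The run was therefore fitted as a block as an alternative. The main fit does not pair the arrays, and its values are those given where the block is not named. Precision is limited by the small number of arrays.

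The members, the gene lists and the tests were chosen with earlier results of these data known. The text names every member, up to 4 genes of each list with the smallest p in the mean response of a line and those called there, and the 3 genes most like a called member. Fits per probeset and diffSplice were added after seeing the data. Other alternatives were the gene summary, the filter on dim genes, trend and robust settings, and leaving out each array. The scripts were tested on simulated data.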

Additional observations from a re-analysis of the deposited data

Results flagged for a closer look

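The response of Ier3 differed between the lines by log2 -1.23 ± 0.24 (3134 minus AtT-20, mean of 2 and 4 h, limma adjusted p = 0.0446; 0.00532 with the run as a block) in a test of the difference itself. It did not pass where a gene value was the mean over probesets (adjusted p = 0.172) or a median polish (adjusted p = 0.262). Ier3 was lower than its 0 h array in 4 of 4 within-run comparisons at 2 and 4 h in 3134 (-1.39, -1.37, -1.17 and -1.57). In AtT-20 the same comparisons gave -0.44, 0.02, -0.09 and -0.07. Its levels in AtT-20 at 0 h, 6.99 and 6.87, were near the brightness cutoff of 6.59, and the part of this in the difference was not tested.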

How the results depend on the processing

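The number of members called in 3134 changed with the scale between arrays, with the gene value and with the pairing of arrays by run. The 1 call at 2, 4 and 8 h and in the average became 3, 2, 4 and 4 with the replicate block and 0 on the values as deposited. It became 2, 3, 4 and 5 on the deposited values with the block, and 3, 3, 4 and 3 on median-centred arrays with the block. The mean over probesets gave 2 at 2 h, 4 h and in the average, and median polish gave 2, 2, 0 and 3. On the deposited values the median of all genes moved by -0.26 in the average response, and with the block 157 genes were then higher and 385 lower, against 400 and 249 on the normalised values with the block. Without the block these counts were 20 and 4 as deposited and 178 and 63 as reported. Leaving out each array gave 0 to 1 at 2 h, 0 to 2 at 8 h and 1 to 2 in the average, where 2 came without 3134 0 h replicate 1. The 1 call in the difference of the lines' responses became 2 with the replicate block, 0 as deposited, 3 as deposited with the block, 2 centred with the block, and 0 with no filter on dim genes or with trend and robust settings. With the mean over probesets or median polish it stayed 1, but the gene called was Fosl2 and not Ier3, as at 8 h in 3134 with the mean over probesets. It ranged from 0 to 1 when each array was left out. Between the lines at 0 h, 4 to 5 members were called when each array was left out, against 6 as reported. The cause of these changes was not tested.

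Changes of direction were seen only where a change did not pass the test under either setting. Atf3 in 3134 at 4 h (-0.03) became 0.21 on centred arrays, with or without the block, 0.12 for the mean over probesets and 0.089 for median polish, and ranged from -0.19 to 0.13 when single arrays were left out. Atf3 at 8 h became -0.085 with median polish. In the mean response of AtT-20, Junb became -0.064 as deposited, with or without the block, and -0.075 for the mean over probesets. Without single arrays the AtT-20 values ranged from -0.050 to 0.070 for Junb, from -0.18 to 0.46 for Fosl2, from -0.44 to 0.11 for Atf3 and from -0.43 to 0.022 for Jund. In the difference of the lines they ranged from -0.82 to 0.069 for Jun and from -0.0069 to 0.54 for Atf3. Jund between the lines at 0 h became 0.24 as deposited, with or without the block, 0.11 for the mean over probesets and 0.018 for median polish, and ranged from -0.36 to 0.085 without single arrays. Of the other comparisons of a member result with an alternative, 44 passed only under the alternative and 36 only as reported. A further 795 were counted as unchanged and 24 as moved. For a refit, unchanged meant the same direction and side of the threshold. For a single run taken alone, which has no test, it meant a value within the standard error of the reported one. All 24 moved values were of single runs.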
